A study of Mus musculus with 36 samples.

Results

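The genes of the cytosolic ribosome were followed across mouse natural killer (NK) cells, lymphocytes that kill target cells and secrete cytokines. Genes were taken by symbol: Rpl or Rps followed by a digit, together with Rplp0, Rplp1, Rplp2 and Rpsa, leaving out pseudogenes (symbols with -ps) and the kinases of the Rps6k family, and keeping a gene in a table when its mean was at least 1 TPM (transcript abundance per length, scaled to a fixed library total). The name rule matched 94 entries in each of the 4 deposited tables, and 88 were kept of 32940 genes in the table of sorted subsets, 90 of 56923 in the ionomycin table, 87 of 56923 in the antibody table and 88 of 56923 in the tumour table. A core of 77 genes, kept in every table, encodes proteins of the standard ribosome: 43 of the large subunit, 3 of its stalk and 31 of the small subunit. The other 13 genes kept in at least 1 table are paralogs, near-copies or genes that only share the name, and were set apart. Just outside the minimum lay Rps3a3 in the subset table (0.80 TPM) and Rpl32l in the antibody table (0.88 TPM), and just inside lay Rpl32l in the ionomycin table (1.04 TPM), Rps23rg1 in the same table (1.15 TPM) and Rpl6l in the antibody table (1.34 TPM). The 4 entries kept in no table were Rpl3l, Rpl10l and Rps12l1, listed at 0 in all 4 tables, and Rpl39l, at 0.49 TPM or less.

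The 36 libraries formed 12 groups of 3 replicates, which the titles call biological replicates. Mature splenic NK cells, negative for CD27 and positive for CD11b, were sorted by inhibitory receptors into cells with Ly49C, Ly49I and NKG2A (TP), cells with Ly49I and neither of the others (SP) and cells with none of them (TN), from wild-type C57BL/6 mice (WT) and from mice lacking B2m (KO), a subunit of MHC class I. NK cells were also taken from cultured splenocytes of WT mice. One set of cultures ran for 22 h, with the calcium ionophore ionomycin or its vehicle. The other ran for 48 h, either in plain medium or in wells coated with an antibody pair, anti-NKp46 plus anti-NKG2D in some and anti-NKp46 plus anti-DNAM-1 in others. The last group was NK cells, negative for CD27 and positive for CD11b, from MC38 tumours, a mouse colon carcinoma line, whose cells lacked B2m and which had grown under the skin of B6 mice for 10 days. The labels give no dose of ionomycin, and no age or sex of the mice. All 8 NK markers checked (Ncr1, Klrb1c, Klrd1, Klrk1, Eomes, Tbx21, Prf1, Gzma) had a mean of at least 1 TPM in every group. In the antibody experiment the title and the table column named in the description gave different groups for 6 of 9 libraries, and the columns were followed. In the tumour experiment the column names carry B2MKO and SP, while the genotype is given as WT and the titles name no SP subset. The labels do not say what these terms refer to, and the group in the labels was used. Groups were compared only within a table. The tables were normalized separately, so values of several tables set side by side describe the tables, not conditions.

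A ribosome holds 1 copy of most of its proteins, so the cell makes them in matched amounts. Their mRNAs are short, abundant and long-lived, and most begin with a C followed by a run of pyrimidines, the 5′ terminal oligopyrimidine tract. Through this tract the kinase mTORC1 and the RNA-binding protein LARP1 set how much of the mRNA is translated, so that the level of these mRNAs and the rate at which they are used can differ. The large subunit carries the peptidyl transferase centre and the stalk that recruits elongation factors. The small subunit carries the decoding site. Resting lymphocytes are small cells with few ribosomes, and activation is known to increase both.

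RefSeq promoter windows (GRCm38.p6, 250 bases before to 50 after the annotated start) were found for 66 of the 90 genes, 77 windows in all, and were set beside all 32851 windows of the table. The letters CTTTC on the transcribed strand, from 10 before to 20 after the start, were in 20.8% of the windows of these genes and in 3.74% of all windows. The letters CCGGAAG on either strand, the core to which ETS-family factors bind, were in 33.8% against 8.86%. AAGATGGC on either strand, the core of the YY1 site, was in 10.4% against 2.75%, and TATAAA on the transcribed strand, from 45 to 15 before the start, in 1.3% against 2.14%. The median longest run of C or T around the start was 6 bases for these genes and 4 for all. Such matches describe letters only. The windows below, from 20 before to 30 after the start, belong to the most abundant gene of the subset and ionomycin tables (Rpl13a), to 3 genes called higher with ionomycin (Rpl12, Rpl39 and Rpl26, the last called between KO subsets too), and to Rps27 with its near-copy Rps27rt and paralog Rps27l. With ionomycin the means of Rps27 and Rps27rt were higher and that of Rps27l lower, with no call. Capitals mark CTTTC between 10 before and 20 after the start and CCGGAAG or its reverse complement CTTCCGG anywhere.
Rpl13a (chr7:45128716-45128765, minus strand): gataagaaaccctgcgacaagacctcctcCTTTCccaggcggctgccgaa
Rpl12 (chr2:32961692-32961741, plus strand): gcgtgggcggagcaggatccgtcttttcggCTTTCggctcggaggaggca
Rpl39 (chrX:37085193-37085242, minus strand): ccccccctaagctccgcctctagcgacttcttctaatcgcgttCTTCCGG
Rpl26 (chr11:68901546-68901595, plus strand): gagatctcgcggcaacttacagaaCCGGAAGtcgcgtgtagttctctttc
Rps27 (chr3:90213619-90213668, minus strand): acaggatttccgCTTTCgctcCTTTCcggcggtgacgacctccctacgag
Rps27rt (chr9:114982710-114982759, minus strand): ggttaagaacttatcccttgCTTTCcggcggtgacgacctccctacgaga
Rps27l (chr9:66946066-66946115, plus strand): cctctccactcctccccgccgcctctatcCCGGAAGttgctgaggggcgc

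Rps27 and Rps27rt share a run of 29 letters here, and their coding sequences in GENCODE M21 are identical over all 252 bases, so reads from the coding part cannot tell them apart. Rps27l is 77.4% identical to Rps27 over the aligned coding bases. Rpl22l1 is 71.2% identical to Rpl22, and Rpl36al 87.7% identical to Rpl36a. The median coding length was 453 bases over 83 of the 90 genes and 1173 bases over 21877 genes with a coding transcript.

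The ribosomal protein genes held between 5.91% and 8.34% of all TPM in the 18 libraries of sorted subsets. In KO TP cells the share was lowest, at 5.91%, 6.51% and 6.58% (6.33 ± 0.365%, SD, n = 3). All 3 of these libraries lay below the 3 WT TP libraries, at 6.79%, 6.84% and 7.78% (7.14 ± 0.558%), and below the 3 KO TN libraries, at 8.34%, 7.33% and 7.55% (7.74 ± 0.531%). KO SP cells held 6.94%, 6.64% and 6.83%, WT SP cells 6.60%, 6.64% and 7.74%, and WT TN cells 7.25%, 7.80% and 8.28%. The replicate 3 libraries were the highest in each of the 3 WT groups, and WT TN cells overlapped with WT TP cells, although each WT TN library lay above the WT TP library of the same number. Every KO SP library lay above every KO TP library. TPM are shares of a library, so a lower share can mean less mRNA of these genes or more of others. In bulk samples, fewer cells of a type and less RNA per cell cannot be told apart.

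In the ionomycin table the vehicle libraries held 9.79%, 7.90% and 9.70% of TPM in these genes (9.13 ± 1.07%) and the ionomycin libraries 16.0%, 14.4% and 16.0% (15.5 ± 0.894%), with no overlap. In the antibody table the medium libraries held 13.9%, 14.4% and 14.6% (14.3 ± 0.389%). The libraries on NKp46 and NKG2D antibodies held 16.8%, 15.9% and 15.4% (16.0 ± 0.674%), and those on NKp46 and DNAM-1 antibodies 15.8%, 16.5% and 15.7% (16.0 ± 0.430%). Every antibody library lay above every medium library, and the 2 antibody pairs overlapped. The tumour libraries held 15.2%, 14.2% and 12.9%. In these libraries 5 tumour or fibroblast markers summed to 31.9 to 925 TPM, with 2 of them at a mean of 1 TPM or more. The 5 macrophage markers summed to 18.8 to 65.1 TPM, all 5 at a mean of 1 TPM or more, and the 5 neutrophil markers were at 0. The part of other cells in the tumour values was not tested.

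**Figure D1:**
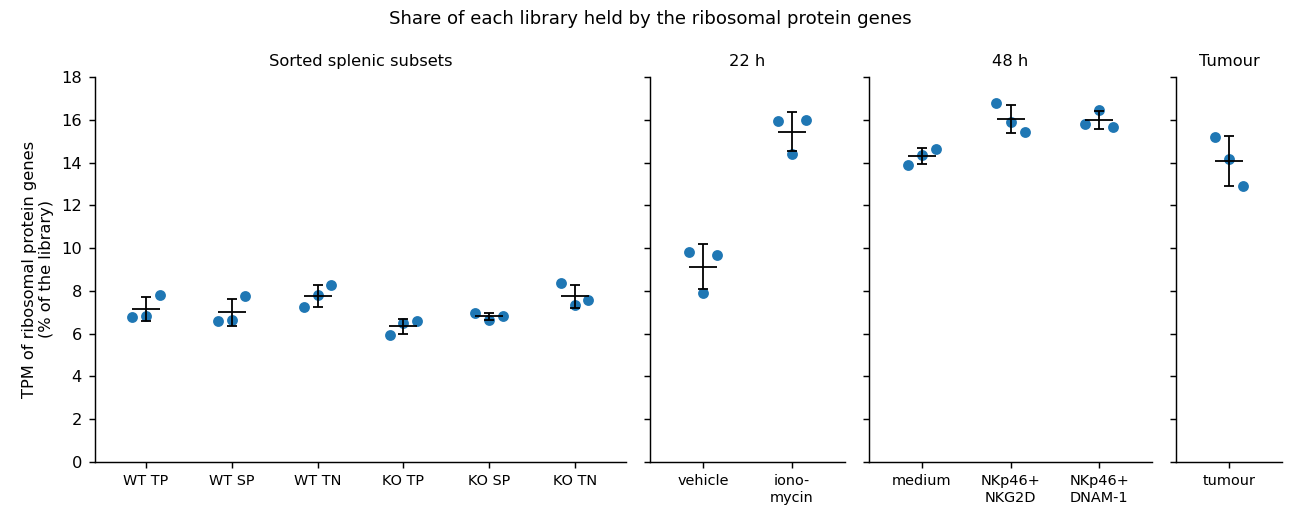
Share of each library's TPM held by the ribosomal protein genes kept in its table, in percent (vertical axis), for each library (points) with the group mean and SD of 3 (bars); panels are separate tables and are not comparable in level. KO TP libraries (5.91% to 6.58%) lie under the WT TP libraries, and ionomycin libraries (14.4% to 16.0%) over the vehicle libraries (7.90% to 9.79%).

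The 2 subunits kept a near-constant ratio within a table. Summed large-subunit TPM, stalk included, divided by summed small-subunit TPM was 1.17 to 1.24 over the 18 subset libraries, 1.31 to 1.40 over the ionomycin table, 1.25 to 1.32 over the antibody table and 1.29 to 1.33 in the tumour libraries. It was 1.34 ± 0.0485 with vehicle and 1.36 ± 0.00512 with ionomycin. The shares of both subunits thus moved together when the total changed.

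Rpl13a, Rps27 and Rps24 were the 3 most abundant members of the set in every table by mean TPM, which is a value per length. Rpl13a, a large-subunit protein, led at 3039 TPM in the subset table and 4710 TPM in the ionomycin table, and Rps24, a small-subunit protein, led at 5026 TPM in the antibody table and 5138 TPM in the tumour table. The lowest core genes were Rpl5, Rpl12 and Rpl35 in the subset table, Rpl37, Rpl24 and Rps20 in the ionomycin table, Rpl37, Rpl14 and Rpl22 in the antibody table and Rpl24, Rpl28 and Rpl22 in the tumour table. The highest core gene stood 7.52 times over the lowest in the ionomycin table, 5.27 times in the antibody table and 7.82 times in the tumour table, and 58.5 times in the subset table. In that table Rpl5, which with Rpl11 and 5S rRNA forms a particle that binds Mdm2, had a mean of 52.0 TPM and Rpl12, a protein at the base of the stalk, 53.6 TPM. Pseudogenes named after Rpl5 held only 1.91 TPM there, and none is named after Rpl12. The cause of these low values was not tested.

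Pseudogenes named after these genes held 10509 to 14737 TPM per library in the subset table, and 255 to 511 TPM in the libraries of the other tables, as these were deposited. Of the 50 kept genes with a pseudogene named after them, 11 had over 50% of the joint TPM on the pseudogenes in the subset table and none had over 10% in the others, where the highest share was 3.26% (Rps23, tumour table). In the subset table Rpl10 had a mean of 190 TPM and its pseudogene Rpl10-ps3 1184 TPM. Rps23 had 538 TPM and Rps23-ps1 1723 TPM, and Rps12 had 245 TPM and Rps12-ps3 1083 TPM. The level of single members in the subset table is therefore uncertain where near-identical copies share reads. The split between such copies also varied between libraries of a group: Rps27rt stood at 1.56%, 10.7% and 1.84% of Rps27 in WT TN cells. In limma fits with the named pseudogenes summed into their genes, 6 of 88 members were called in KO TN minus KO TP. In KO TP minus WT TP 2 were called. Of all genes 0.527% and 1.61% were called there in either direction. Without the summing the member counts were 5 and 2. The part of near-copies outside that sum, such as Rps27rt, in the comparisons of single members was not tested. With the pseudogenes added, the mean shares came to 7.52% in KO TP, 8.01% in KO SP, 8.44% in WT TP and 9.17% in KO TN cells, and KO TP was again the lowest of the 6 groups.

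The comparison of ionomycin with vehicle asks how NK cells differ after a sustained calcium signal, a treatment known to make lymphocytes hyporesponsive. All 77 core genes had higher means with ionomycin, by 0.37 (Rps25) to 1.30 (Rpl24) on the log2(TPM + 1) scale, and the median over the 90 genes was 0.76, or 1.69-fold, against -0.0044 over all 14372 genes tested. With limma, 23 of the 90 genes were called higher at a Benjamini-Hochberg adjusted p under 0.05 and none lower, where 1.66% of all genes tested were called higher and 1.25% lower. The groups did not overlap, with ionomycin higher, for 71 of the 90, against 10.5% of all genes. An unadjusted p under 0.05 was found for 73 of the 90 and for 15.1% of all genes. The calls rest on few samples: none was made without vehicle replicate 2 or without any single ionomycin replicate, without the filter on low values or without the variance trend, while the median stayed between 0.59 and 0.86 under all alternatives.

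Of the 46 large-subunit genes 15 were called. Rpl12 (ENSMUSG00000038900) was at 1150, 691 and 873 TPM with vehicle against 2233, 2042 and 1897 TPM with ionomycin. The lowest ionomycin library lay over the highest vehicle library, and the log2 change was 1.21 ± 0.22 (SE; limma adjusted p 0.0255). Rpl39 (ENSMUSG00000079641), a short protein that lines the exit tunnel of the nascent chain, went from 532, 415 and 536 TPM to 1230, 965 and 1066 TPM (log2 change 1.14 ± 0.19, limma adjusted p 0.0205). Rpl32 (ENSMUSG00000057841) went from 1312, 1120 and 1296 TPM to 2783, 2234 and 2552 TPM, a log2 change of 1.02. In both genes every ionomycin library was above every vehicle library.

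Rpl17 (ENSMUSG00000062328), which lines part of the exit tunnel, went from 1326, 1254 and 1537 TPM to 2988, 2472 and 2815 TPM, a log2 change of 1.01 (limma adjusted p 0.0241). Other called large-subunit genes were Rpl4, Rpl5, Rpl6, Rpl13, Rpl18, Rpl22, Rpl26, Rpl27a, Rpl30 and Rpl34, with log2 changes from 0.83 to 1.00. Rpl24 had the largest change of the core, 1.30 ± 0.30, with an adjusted p of 0.0610 by limma. Rpl13a, the most abundant gene, was at 3101, 3477 and 4804 TPM with vehicle against 5698, 5325 and 5857 TPM with ionomycin, a log2 change of 0.59 that was not called (limma adjusted p 0.225).

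Of the 31 small-subunit genes 8 were called, among them Rpsa, Rps3, Rps7, Rps9, Rps13, Rps16 and Rps27a, the last a fusion of ubiquitin with a ribosomal protein. Rpsa (ENSMUSG00000032518), a small-subunit protein also known as a laminin receptor, was at 1801, 1448 and 1544 TPM with vehicle against 3366, 2806 and 2963 TPM with ionomycin (log2 change 0.93 ± 0.18, limma adjusted p 0.0336). The smallest changes of the core were those of Rps25 (0.37) and Rpl31 (0.39), neither called and both with overlapping groups. The stalk genes Rplp0, Rplp1 and Rplp2, whose products hold the elongation factors, differed by 0.93, 0.57 and 0.74, with no overlap and no call (limma adjusted p 0.0736, 0.162 and 0.143).

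**Figure D2:**
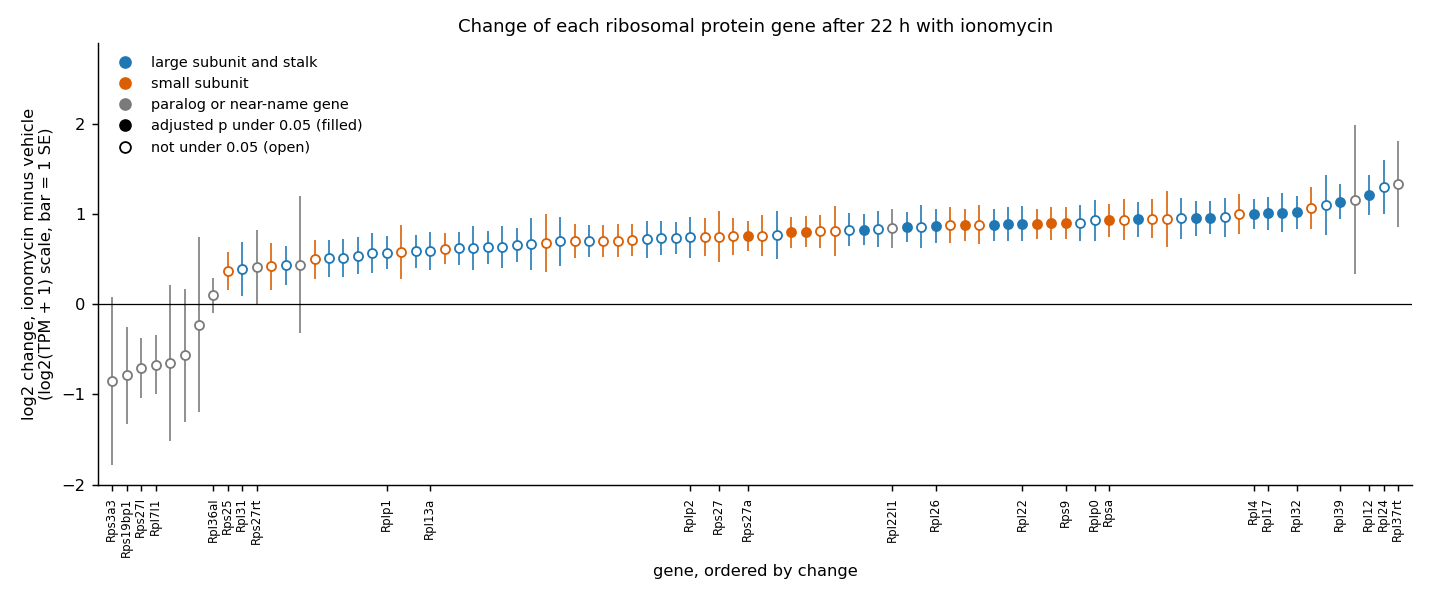
Log2 change of each of the 90 genes, ionomycin minus vehicle (vertical axis, log2(TPM + 1) scale, bars 1 SE from limma), ordered by change (horizontal axis); filled points passed an adjusted p of 0.05, and some of the genes are named. All 77 core genes lie above 0, from 0.37 to 1.30, and the 7 genes below 0 are all paralogs or near-name genes.

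The 13 genes set apart did not move as a block with ionomycin: none was called, 6 had higher means and the median was -0.22. Rpl22 (ENSMUSG00000028936) and its paralog Rpl22l1 (ENSMUSG00000039221), which Rpl22 is known to repress, both had higher values. Rpl22 went from 634, 501 and 703 TPM to 1143, 1049 and 1194 TPM, a called rise of 0.89 (limma adjusted p 0.0486), and Rpl22l1 from 106, 131 and 102 TPM to 178, 233 and 198 TPM, a change of 0.84 that was not called (limma adjusted p 0.0857). Rpl22l1 stood at 19.1 ± 6.17% of Rpl22 with vehicle and at 18.1 ± 3.58% with ionomycin, and the groups overlapped in that ratio.

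Rps27 (ENSMUSG00000090733) and Rps27l (ENSMUSG00000036781), a paralog known as a p53 target, went in opposite directions, neither past the test. Rps27 was at 2025, 3000 and 4482 TPM with vehicle against 4759, 4809 and 5662 TPM with ionomycin (log2 change 0.75, limma adjusted p 0.257). Rps27l was at 93.9, 54.0 and 97.7 TPM with vehicle against 39.1, 43.2 and 66.1 TPM with ionomycin (log2 change -0.70, limma adjusted p 0.370). As a share of Rps27, Rps27l was 1.80% to 4.64% with vehicle and 0.822% to 1.17% with ionomycin, with no overlap. The near-copy Rps27rt was at 14.3 to 27.8 TPM with vehicle against 19.9 to 40.9 TPM with ionomycin. Rpl7l1, a nucleolar relative of Rpl7, had a change of -0.67 and Rps19bp1, an Rps19-binding protein that is not part of the ribosome, one of -0.79, both with overlapping groups. Rpl36al was at 356 to 475 TPM with vehicle against 421 to 475 TPM with ionomycin.

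**Figure D3:**
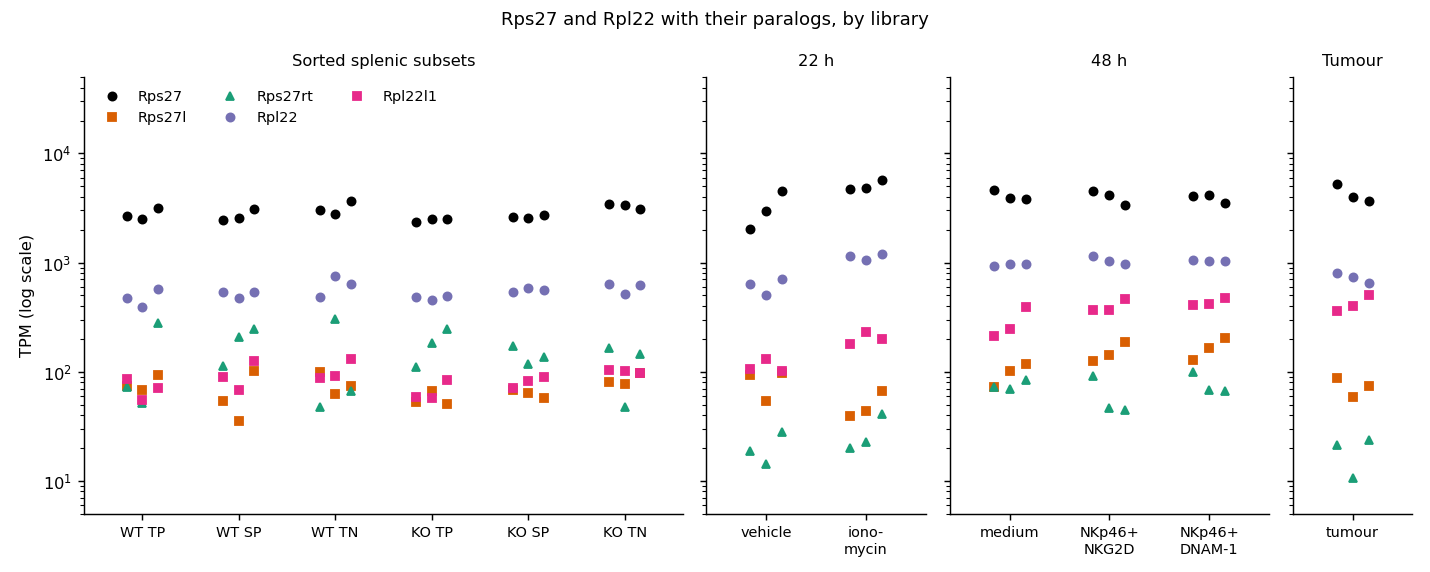
TPM of Rps27, its paralog Rps27l and near-copy Rps27rt, and of Rpl22 and its paralog Rpl22l1 (vertical axis, log scale) in each of the 36 libraries (points), by group (horizontal axis); panels are separate tables. With ionomycin Rps27 and Rpl22l1 lie above the vehicle libraries while Rps27l libraries (39.1 to 66.1 TPM against 54.0 to 97.7 TPM) overlap with them at lower values.

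Other features of the libraries moved with ionomycin, and their part in the result was not tested. The summed TPM of the 8 NK markers was 7924 to 12953 with vehicle and 4623 to 5817 with ionomycin. The neutrophil markers summed to between 0 and 278 TPM with vehicle and between 0 and 118 TPM with ionomycin, and the T cell markers to 2.24 to 7.63 and 10.9 to 25.3 TPM. Genes above 0 numbered 13904 to 14578 with vehicle and 15157 to 15483 with ionomycin. The vehicle libraries also differed widely among themselves in Ifng, the gene of interferon-gamma, at 27588.5, 2522 and 82.4 TPM. With ionomycin Ifng was at 1556, 1002 and 852 TPM. Scaling on genes other than the members gave 36 calls (40% of the members, against 3.26% of all genes called in either direction), median-of-ratios scaling 10 (11.1% against 3.02%) and quantile normalization 5 (5.56% against 3.19%), so the number of calls depends on the scale while the direction of the median does not.

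The antibody comparisons ask how NK cells differ after 48 h of signals through pairs of activating receptors. Both comparisons share the 3 medium libraries. With NKp46 and NKG2D antibodies 79 of 87 genes had higher means, with a median of 0.19 against -0.04 over all 13689 genes tested, and with NKp46 and DNAM-1 antibodies 81 of 87, with a median of 0.19 against -0.04. The groups did not overlap, with antibody higher, for 48 genes with NKG2D (7.5% of all genes) and for 46 with DNAM-1 (9.46% of all genes). With limma 1 gene was called higher with NKG2D, where 0.153% of all genes were, and 2 with DNAM-1, where 0.285% were. None was called lower, where 0.278% and 0.497% of all genes were.

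Rpl41 (ENSMUSG00000093674), which encodes one of the shortest eukaryotic proteins, was at 1700, 1780 and 1781 TPM in medium, at 2326, 2250 and 2150 TPM with NKG2D antibodies and at 2299, 2170 and 2261 TPM with DNAM-1 antibodies. The 6 antibody libraries were all above the 3 medium libraries, and the log2 change was 0.35 ± 0.06 in each comparison (limma adjusted p 0.0390 and 0.0337). Rps2 (ENSMUSG00000044533), at the entry of the mRNA channel, was at 1235, 1463 and 1591 TPM in medium and at 1925, 2053 and 2055 TPM with DNAM-1 antibodies, a log2 change of 0.50 ± 0.09 (limma adjusted p 0.0369). With NKG2D antibodies it was at 1990, 1944 and 1979 TPM, a log2 change of 0.47 that was not called. Column names join the replicate number to the genotype (WT1, WT2, WT3), which may mean 1 mouse per number. With that number as a block 6 genes were called with NKG2D (1.75% of all genes in either direction) and 15 with DNAM-1 (3.86% of all genes). Without the filter on low values, with quantile normalization, without the variance trend or with only the compared groups in the fit, no member was called in either comparison. Without medium replicate 3 the numbers were 8 and 15, and the shares of all genes called in those fits are not given here. With the groups of the sample titles none was called, the change of Rpl41 was -0.02 in both, and the medians over the 87 genes were 0.01 and -0.01. Each title group holds 1 library of each column group, so differences between the column groups largely cancel there. With title groups 0% and 0.00731% of all genes were called, against 0.431% and 0.782% with the columns. The direction given here is that of the column groups.

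The laminin receptor gene Rpsa was at 2503, 2601 and 2615 TPM in medium and at 3031, 3122 and 3008 TPM with NKG2D antibodies, a log2 change of 0.25 with an adjusted p of 0.0950 by limma. The stalk gene Rplp0 was at 1528, 1491 and 1620 TPM in medium and at 2001, 1871 and 1877 TPM with NKG2D antibodies (log2 change 0.31, limma adjusted p 0.0819). Rpl13a and Rps27, the most abundant genes with Rps24, were among the few core genes with lower means, by -0.09 and -0.05 with NKG2D and by -0.14 and -0.08 with DNAM-1, and their groups overlapped. Among the paralogs, Rps27l was at 73.1, 102 and 119 TPM in medium, at 125, 142 and 185 TPM with NKG2D antibodies and at 128, 164 and 204 TPM with DNAM-1 antibodies, with changes of 0.63 and 0.75 that were not called. Rpl22l1 was at 214, 244 and 390 TPM in medium, at 370, 366 and 465 TPM with NKG2D antibodies and at 407, 414 and 469 TPM with DNAM-1 antibodies, again with no call. Replicate 3 was the highest for both genes in all 3 groups.

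Between the 2 antibody pairs the core genes differed by -0.12 (Rpl35) to 0.12 (Rpl15), with a median of 0.00 over the 87 genes. None was called by limma, where 0.0146% of all genes were called in either direction, and none had an unadjusted p under 0.05, against 1.22% of all genes. Genes above 0 differed with the antibodies too, at 13555 to 14674 in medium, 16107 to 17680 with NKG2D and 17132 to 18096 with DNAM-1. The 8 B or plasma cell markers summed to 184 to 223 TPM in medium, 124 to 170 TPM with NKG2D and 152 to 180 TPM with DNAM-1, with no overlap between medium and either pair, and 4, 3 and 2 of them were at 0 in all libraries of the group. The part of these features in the results was not tested.

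Among sorted subsets, TN cells against TP cells ask what differs between mature NK cells without and with receptors for self MHC class I. In KO mice, 85 of 88 genes had higher means in TN than in TP cells, with a median of 0.28, or 1.22-fold, against -0.03 over all 12018 genes tested. With limma 5 genes were called higher and none lower, where 0.241% of all genes were called higher and 0.283% lower. The groups did not overlap, with TN higher, for 49 of the 88 (5.67% of all genes), and 45 had an unadjusted p under 0.05 (6.43% of all genes). With the replicate number within the genotype as a block, which column names may tie to a mouse, 11 were called (0.682% of all genes in either direction). With only the compared groups in the fit, with no variance trend, or without any 1 of the KO TP replicates or KO TN replicate 1, none was. Without KO TN replicate 2 the number was 3, and without KO TN replicate 3, or without the filter on low values, it was 1. Without the filter 0.419% of all genes were called in either direction, and the shares with a replicate left out are not given here.

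Rps4x (ENSMUSG00000031320), the X-linked small-subunit protein, was at 904, 922 and 904 TPM in KO TP cells and at 1318, 1108 and 1146 TPM in KO TN cells (log2 change 0.38 ± 0.07, limma adjusted p 0.0166). Rps9 (ENSMUSG00000006333), an early-binding small-subunit protein, was at 919, 967 and 958 TPM in KO TP cells and at 1332, 1114 and 1211 TPM in KO TN cells (log2 change 0.36, limma adjusted p 0.0256). In both genes the KO TP libraries lay close together and KO TN replicate 1 was the highest library.

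Rpl4 (ENSMUSG00000032399), whose loop lines the exit tunnel, was at 797, 892 and 825 TPM in KO TP cells and at 1101, 1071 and 1037 TPM in KO TN cells (log2 change 0.35). Rpl26 (ENSMUSG00000060938), known also to bind p53 mRNA, was at 944, 918 and 971 TPM in KO TP cells and at 1287, 1102 and 1237 TPM in KO TN cells (log2 change 0.35). In these 4 genes the groups did not overlap. Rps9, Rpl4 and Rpl26 were also called higher with ionomycin in the separate ionomycin table, and Rps4x was not (log2 change 0.71, limma adjusted p 0.0825).

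**Figure D4:**
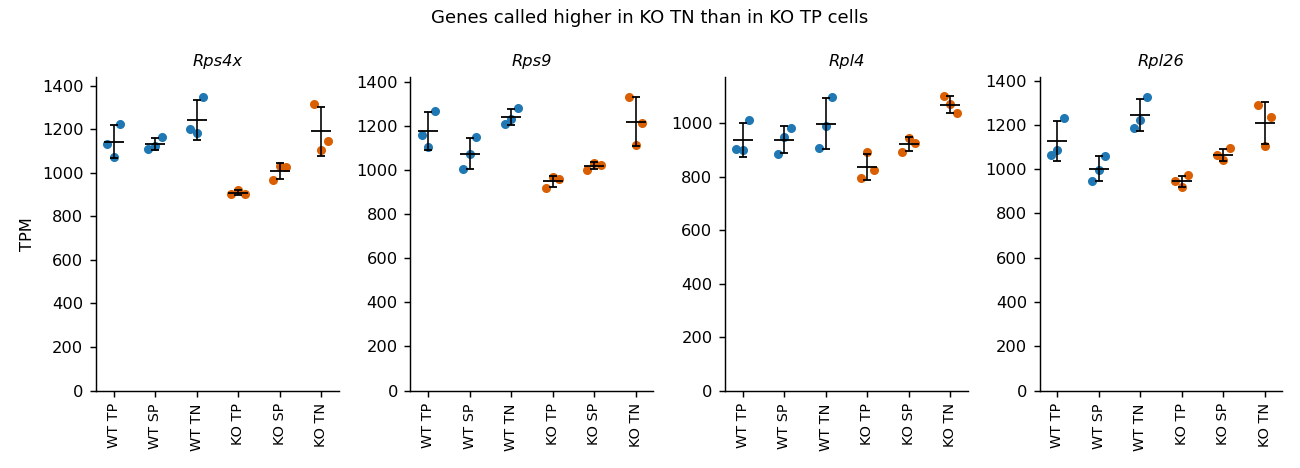
TPM of Rps4x, Rps9, Rpl4 and Rpl26 (vertical axes from 0) in the 18 libraries of sorted subsets (points; WT blue, KO orange), with group means and SD of 3 (bars). For each gene the 3 KO TP libraries lie below the 3 KO TN libraries, with KO SP libraries between the KO means.

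Against WT TP cells, KO TP cells had lower means for 76 of 88 genes, with a median of -0.17 against 0.04 over all genes. Limma called 2 genes lower and none higher, where 0.607% of all genes were called lower and 0.982% higher. Rps4x was at 1132, 1075 and 1225 TPM in WT TP cells, so that it fell by 0.33 on the log2 scale (limma adjusted p 0.0257), and Rps9 was at 1160, 1102 and 1267 TPM, so that it fell by 0.31 (limma adjusted p 0.0345). The groups did not overlap, with KO lower, for 28 of the 88, against 7.14% of all genes. Neither call was made without WT TP replicate 3, without any 1 of the KO TP replicates, with only the compared groups in the fit, without the filter on low values or without the variance trend. The comparisons of KO TN with KO TP and of KO TP with WT TP share the KO TP libraries.

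KO TP libraries also had higher summed TPM of markers of other cells, and the part of this in these results was not tested. The summed TPM of 8 B or plasma cell markers was 404 to 683 in KO TP, 167 to 181 in WT TP and 216 to 237 in KO TN cells, with 7, 6 and 3 of them at a mean of 1 TPM or more. The 5 neutrophil markers summed to 47.2 to 173 TPM in KO TP cells, were all at 0 in WT TP cells and summed to at most 0.39 TPM in KO TN cells, where 4 of 5 were at 0. The 5 macrophage markers summed to 23.2 to 53.9 TPM in KO TP, 11.6 to 14.6 in WT TP and 0.36 to 6.05 in KO TN cells. The 4 T cell markers in the table summed to 12.5 to 16.6 TPM in KO TP, 2.64 to 4.88 in WT TP and 6.38 to 10.1 in KO TN cells. The NK markers summed to 18221 to 19516 TPM in KO TP, 18734 to 19678 in WT TP and 16441 to 18396 in KO TN cells.

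In WT mice, 67 of 88 genes had higher means in TN than in TP cells, with a median of 0.12 against -0.01 over all genes. None was called by limma, where 1.31% of all genes were called in either direction, and 9 had an unadjusted p under 0.05, or 10.2% against 12.5% of all genes. With the replicate block 19 did, or 21.6% against 12.9% of all genes, so that the share lay below that of all genes without the block and above it with the block. The groups did not overlap for 7 genes with TN higher (6.62% of all genes) and for 1 with TN lower (7.95% of all genes). The test of the difference between KO and WT in this contrast called none of the 88 genes, where 0.025% of all genes were called. Its median over the 88 genes was 0.19, and 12 had an unadjusted p under 0.05 (6.27% of all genes), or 20 with the replicate block (6.92% of all genes). The stalk genes Rplp0 and Rplp1 had differences of 0.22 and 0.24 in that test, with limma adjusted p of 0.733 and 0.718. The third stalk gene, Rplp2, had one of 0.0097, also not called. A difference between the genotypes in how TN and TP cells compare was therefore not shown for any member.

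In WT mice 37 of 88 genes had higher means in SP than in TP cells, with a median of -0.02 and none called (0.191% of all genes in either direction). An unadjusted p under 0.05 was found for 4 of them (7.71% of all genes), and with the replicate block for 9 (8.1% of all genes). In KO mice 75 of 88 had higher means in SP than in TP cells, with a median of 0.10 and none called (0.2% of all genes in either direction). The groups did not overlap, with SP higher, for 19 genes in KO mice (4.75% of all genes). An unadjusted p under 0.05 was found for 4 (2.93% of all genes), and with the replicate block for 9 (3.21% of all genes). KO against WT gave a median of -0.03 in SP cells, with no call by limma (1.35% of all genes) and 6 genes at an unadjusted p under 0.05 (11.7% of all genes). There the groups did not overlap for 5 genes with KO higher (11.1% of all genes) and for 7 with KO lower (7.78% of all genes). In TN cells KO against WT gave a median of 0.01, with no call by limma (0.716% of all genes) and 2 genes at an unadjusted p under 0.05 (10.5% of all genes).

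**Figure D5:**
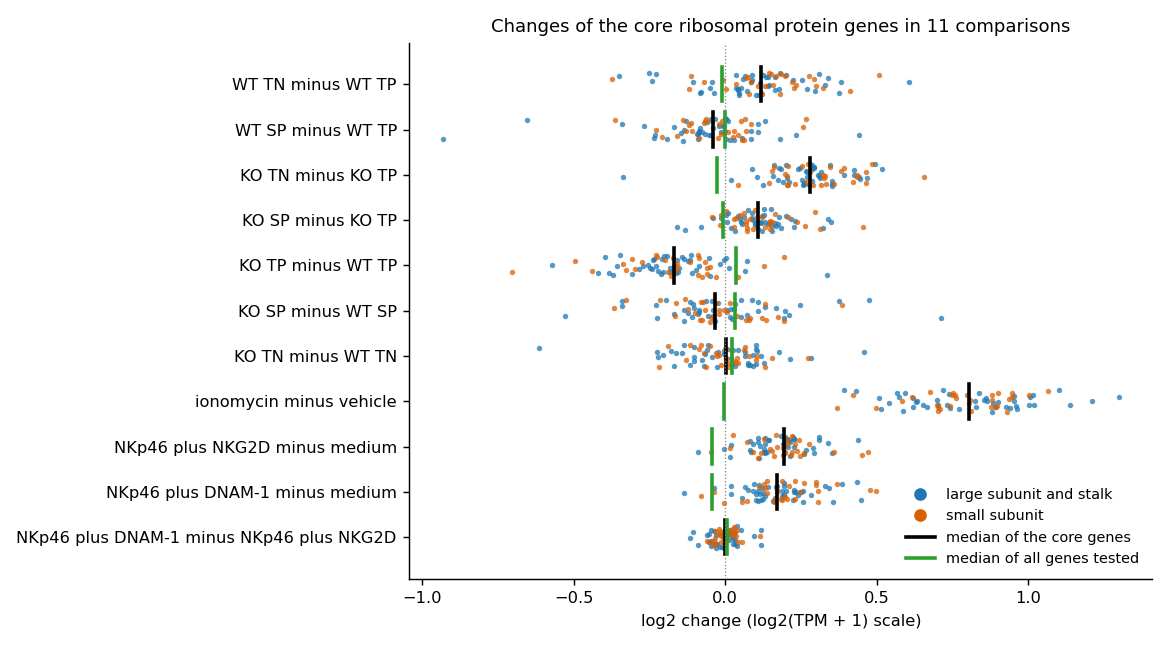
Log2 changes of the 77 core genes (points; large subunit and stalk blue, small subunit orange) in 11 comparisons, with the median of the core genes (black) and of all genes tested (green) on the log2(TPM + 1) scale (horizontal axis). The core medians lie farthest from those of all genes for ionomycin (0.81) and for KO TN minus KO TP (0.28).

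In the subset table the paralogs varied more than the core genes. Rps27rt ran from 47.6 to 302 TPM over the 18 libraries, and from 47.6 to 302 TPM within WT TN cells alone, while Rps27 ran from 2348 to 3631 TPM. Rpl22l1 was at 58.6, 56.9 and 84.9 TPM in KO TP cells and at 104, 102 and 97.6 TPM in KO TN cells, with no overlap and no call (log2 change 0.62, limma adjusted p 0.487). Rps4l, a near-copy of Rps4x, was at 13.0, 11.3 and 12.7 TPM in WT TP cells and at 22.1, 15.1 and 31.4 TPM in KO TP cells, with no overlap and no call (log2 change 0.78, limma adjusted p 0.323). Rpl6l, Rpl32l and Rps3a2 had the largest SD of log2 values, between 1.19 and 1.96, and means of 8.68, 1.67 and 30.3 TPM. The most variable members were also among the genes set apart in the ionomycin table (Rps3a3, Rps23rg1 and Rps4l, with an SD of 1.09 to 1.15), in the antibody table (Rpl6l, Rps19bp1 and Rpl7l1, 0.46 to 0.83) and in the tumour table (Rps4l, Rpl37rt and Rpl7l1, 0.86 to 1.88). Rps3a3 and Rps23rg1 had means of only 1.73 and 1.15 TPM in the ionomycin table, with some libraries at 0. Rpl36al, also set apart but at a mean of 437 TPM, had the lowest SD of the 90 genes there, 0.16. In the tumour libraries Rpl22l1 was at 363, 399 and 502 TPM and Rpl22 at 809, 740 and 656 TPM, so that Rpl22l1 stood at 44.8% to 76.4% of Rpl22. These libraries also held the tumour or fibroblast markers given above, whose part in this ratio was not tested.

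Changes were also read by promoter letters, as medians with no test. Of the 57 core genes with a window, the 14 with CTTTC at the start had a median change of 0.75 with ionomycin and the other 43 of 0.86, and in KO TN minus KO TP the medians were 0.26 and 0.28. They were 0.14 and 0.20 with NKG2D antibodies and 0.13 and 0.19 with DNAM-1 antibodies. The genes with CTTTC thus had the lower median in all 4 comparisons. The antibody comparisons share the medium libraries, so the 4 are not independent. For the 24 genes with CCGGAAG the median with ionomycin was 0.79, and for the 33 without it 0.81, and the other 3 comparisons differed by less than that.

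Genes that work with the ribosome were read beside its own. Rack1, a scaffold protein on the small subunit, has a symbol outside the name rule. Rack1 was at 818, 790 and 1034 TPM with vehicle against 1396, 1409 and 1539 TPM with ionomycin (log2 change 0.73, limma adjusted p 0.0820).

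The list of 18 elongation factors and other mRNAs with a 5′ terminal oligopyrimidine tract had 17 higher means with ionomycin, with a median of 0.49. None was called higher and 1, Vim, was called lower, where 1.66% of all genes were called higher and 1.25% lower. Eef1a1, the factor that brings aminoacyl-tRNA to the ribosome, was at 8220, 7195 and 6603 TPM with vehicle against 13485, 11868 and 13011 TPM with ionomycin (log2 change 0.80, limma adjusted p 0.0611). Vim, the intermediate filament vimentin, was at 1138, 639 and 441 TPM with vehicle against 130, 42.2 and 54.1 TPM with ionomycin, so that it fell by 3.34 on the log2 scale (limma adjusted p 0.00972). Vim was also called lower in WT TN than in WT TP cells (-0.29) and in KO TP than in WT TP cells (-0.33). Of all genes 0.624% and 0.607% were called lower there. Of the same list 15 had higher means in KO TN than in KO TP cells (median 0.20) and 4 in KO TP than in WT TP cells (median -0.10). With antibodies 16 had higher means for NKG2D and 15 for DNAM-1 (medians 0.21 and 0.21), with no call.

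Of 18 genes that control the synthesis and translation of ribosomal proteins, 7 had higher means with ionomycin (median -0.12) and none was called. Myc, a transcription factor that drives ribosome synthesis, was at 36.5, 41.2 and 26.2 TPM in WT TP cells and at 53.9, 64.3 and 57.0 TPM in WT TN cells, a called rise of 0.76 (limma adjusted p 0.0389). In that comparison 0.682% of all genes were called higher. Tsc2, which holds mTORC1 back, was at 67.8, 82.6 and 68.0 TPM in medium and at 37.5, 35.8 and 26.1 TPM with NKp46 and DNAM-1 antibodies, so that it fell by 1.12 (limma adjusted p 0.0337). There 0.497% of all genes were called lower. With NKG2D antibodies Tsc2 was at 35.5, 39.1 and 28.6 TPM, a change of -1.07 that missed the threshold (limma adjusted p 0.0531). All 6 antibody libraries lay below the medium libraries.

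Of 30 ribosome assembly genes, 16 had higher means with ionomycin (median 0.06, no call), 19 with NKG2D (median 0.21, no call) and 23 with DNAM-1 antibodies (median 0.23, no call). Nop58, a core protein of the box C/D particles that methylate rRNA, was at 49.0, 58.2 and 42.4 TPM in WT TP cells and at 99.0, 89.7 and 91.0 TPM in WT TN cells, a called rise of 0.90 (limma adjusted p 0.0107). It was also called higher in KO TP than in WT TP cells, at 67.8, 83.6 and 111 TPM (log2 change 0.78). Of all genes 0.682% and 0.982% were called higher in these comparisons. Of 11 p53 targets 10 were tested and none was called in any of the 12 comparisons, and 2 of the 10 had higher means with ionomycin (median -0.29), 1 with NKG2D antibodies (median -0.30) and 2 with DNAM-1 antibodies (median -0.31).

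The 79 mitochondrial ribosomal protein genes tested, which build the separate ribosome of the mitochondrion, had a median of 0.08 with ionomycin, with 45 higher and none called. Their medians were 0.12 and 0.23 with the antibody pairs and -0.04 in KO TN minus KO TP cells, again with no call. The only one called in the 12 comparisons was Mrps16, at 45.8, 48.2 and 60.4 TPM in WT TP cells and at 26.5, 35.2 and 19.9 TPM in KO TP cells, so that it fell by 0.92 (limma adjusted p 0.0232). In that comparison 0.607% of all genes were called lower.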

How the data were processed

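The authors deposited 4 tables of TPM per gene, a value per length that sums to 1e+06 in a full table. STAR, RSEM and GRCm39 are named, without versions, in the submitters' processing notes. Per the labels' protocols, libraries were made from total RNA with an mRNA kit (KAPA mRNA HyperPrep). The subset table lists 32940 genes and its libraries sum to 934292 to 948786 TPM, so shares are of the listed total. TPM keep no depth, so depth is unknown, no counting interval can be given, and genes above 0 (12290 to 18096 per library) stand in for it. Groups came from the labels, and 0 columns of per-sample values were left unused.

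Each table was fitted alone with limma 3.58.1 (R 4.3.3) on log2(TPM + 1), which understates changes of low genes, over genes whose mean reached 1 TPM, with all groups of the table and a variance trend. Tests were two-sided, with Benjamini-Hochberg adjustment over all genes of a comparison and a threshold of 0.05, in 12 comparisons. The tumour group had no control and was not tested. An exact permutation test of 3 against 3 cannot go below 0.1 and was not used. Sums and shares were computed with Python 3.11.15 and pandas 2.3.3, and the fit was tested on simulated data. The p-values set a difference of means against the spread between samples within groups, pooled over all groups of the table and moderated across genes.

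The members, lists and markers were chosen with earlier results of these data known, and 7 near-copies were set apart after the tables were seen. Named are, per comparison, up to 5 called members with the largest changes and no overlap, per table the 3 highest, the 3 lowest core and the 3 most variable members, the stalk genes, Rpsa, the paralogs with their parents, and called genes of the lists. Other genes with values (the extremes of a range, Rpl13a with ionomycin, Rpl10, Rps12, Rps23, Rack1, Eef1a1, Ifng) were chosen after their values were seen. Coordinates and promoters are RefSeq's on GRCm38.p6 and coding sequences GENCODE M21's, neither the build of the values. The pairing was checked by correlating deviations from group means: libraries of the same number correlated at 0.010 on average in the subset table, 0.064 in the antibody table and 0.062 in the ionomycin table. Over 0.1 lay 0 of 18, 1 of 9 and 1 of 3 same-number pairs. Column names of the first 2 tables may tie numbers to mice, which the labels do not state, so the block is given beside a result there where it moved a count by over 1.5 times. Alternatives were another pseudocount, no filter, 3 other scalings, no trend, pseudogenes summed, a block, fewer groups, title-based groups and each replicate left out. Some genes of the set and of the lists are not reported here by name.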

Additional observations from a re-analysis of the deposited data

How the results depend on the processing

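Counts of called genes depended on the settings more than medians did: of 188 alternative counts 59 moved by over 1.5 times, and of 188 alternative medians 7 moved by over the spread. For ionomycin (23 called) the count was 15 with a pseudocount of 0.1, 10 with median-of-ratios scaling, 5 with quantile normalization, 36 scaled on genes other than members, 0 without the filter on low values, 0 without the variance trend, and 0 to 13 leaving out a replicate. In that order, before the replicates, 2.62%, 3.02%, 3.19%, 3.26%, 0.907% and 1.2% of all genes were called in either direction. For KO TN minus KO TP (5) it was 1 without the filter, 0 without the trend, 0 with only the compared groups in the fit, and 0 to 3 leaving out a replicate. In that order, before the replicates, 0.419%, 0.474% and 0.275% of all genes were called. For KO TP minus WT TP (2) the counts in the same order were 0, 0, 0 and 0 to 1. Of all genes 0.968%, 1.26% and 0.358% were called there before the replicates. For NKp46 with NKG2D (1) and with DNAM-1 (2) the count was 0 without the filter, with quantile normalization, without the trend, with only the compared groups and with title-based groups, and leaving out a replicate gave 0 to 8 and 0 to 15. Under the settings named before the replicates, at most 0.468% (NKG2D) and 0.913% (DNAM-1) of all genes were called. Shares of all genes with a replicate left out are not given here. With title-based groups, each holding 1 library of each column group, the change of Rpl41 reversed, to -0.0238 (DNAM-1) and -0.0218 (NKG2D). Leaving out a replicate gave 0 to 1 called in WT TN minus WT TP, WT SP minus WT TP, KO SP minus WT SP and KO TN minus WT TN, where 0 were called. The cause of these moves was not tested. With the replicate block the count was 11 for KO TN minus KO TP, 39 for ionomycin, 6 for NKG2D and 15 for DNAM-1, against 0.682%, 3.32%, 1.75% and 3.86% of all genes, and the block moved no other count of calls. In the ionomycin table samples share only a number. With pseudogenes summed the shares of TPM were 8.44% (WT TP), 8.29% (WT SP), 9.21% (WT TN), 7.52% (KO TP), 8.01% (KO SP) and 9.17% (KO TN). Medians kept their sign under all alternatives for ionomycin (0.59 to 0.86), KO TN minus KO TP (0.24 to 0.32) and KO TP minus WT TP (-0.21 to -0.12).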
